A study of Mus musculus with 8 samples.

Results

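The IAP, ETn, MMERVK and ERVB families are mouse LTR retrotransposons of the ERVK type, and their RNA was followed here in whole testis. Members were the repeat rows of the count files whose names start with IAP, ETn, MMETn, MMERVK or ERVB. The rule reads names and no measured values, and it found 55 of the 1205 repeat families counted. Of these, 26 were internal parts and 29 were LTRs. IAP had 25 members (10 internal parts and 15 LTRs), ETn and MMETn had 4 internal parts, MMERVK had 4 internal parts and 1 LTR, and ERVB had 8 internal parts and 13 LTRs.

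RNA was sequenced from testes of male C57BL/6 mice of genotype Dnmt3A WT/WT or Dnmt3A KO/KO (WT and KO below) at 19 or 25 days post partum (dpp), with 2 libraries in each of the 4 groups. DNMT3A places new methyl groups on cytosines. The labels used here do not say which exons the KO allele lacks, which cells lack DNMT3A, or whether the 2 libraries of a group came from separate animals, so p-values measure the spread between these libraries, which may be technical.

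An intact member is a copy of an old retrovirus. Its internal part carries the gag, pro and pol genes that make the particle and copy RNA into DNA, and an LTR at each end holds the promoter and the signal that ends the transcript. Many copies have lost the internal part and remain as solo LTRs. In mouse germ cells such copies are silenced by DNA methylation set in the fetal testis and guided by piRNAs, in which DNMT3L and DNMT3C also have roles. TRIM28 and SETDB1 also silence such copies, through histone H3 lysine 9 methylation. ETn elements carry no working genes and are copied by proteins from related coding elements. Each row sums reads over all genomic copies of a family, so no copy, coordinate or sequence can be attached to a value, and levels are compared between libraries and not between families.

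The libraries held 22515812 to 50445334 gene counts and 109959 to 290797 member counts. All levels are counts per 1000000 gene counts (CPM), and 3 counts correspond to 0.0595 to 0.133 CPM. Repeat families together held 4.10% to 5.68% of all counts. Dnmt3a RNA was 168 and 154 CPM in WT, against 121 and 119 CPM in KO, at 19 dpp, and 35.4 and 58.4 CPM in WT, against 83.9 and 71.7 CPM in KO, at 25 dpp. Its count is no check of the genotype, since transcript outside a deleted part, if made, would still be counted. Markers of Sertoli cells and of undifferentiated spermatogonia (134 to 410 CPM summed) were present in every library, but their levels differed between the groups. Of 20 Sertoli cell markers, 12 rose in KO at 19 dpp and 19 rose at 25 dpp, and their summed level was 6028 to 7169 CPM in WT against 10812 to 12133 CPM in KO at 19 dpp, and 1993 to 2913 CPM against 8518 to 10504 CPM at 25 dpp. All 10 markers of pachytene to secondary spermatocytes fell in KO at both ages, with summed levels of 1178 to 2794 CPM in WT against 113 to 169 CPM in KO at 19 dpp, and 8488 to 9662 CPM against 818 to 1469 CPM at 25 dpp. All 12 spermatid markers fell in KO at 25 dpp (2578 and 507 CPM in WT, 10.3 and 14.0 CPM in KO), and Prm1, Prm2 and Tnp2 had 0 counts outside the WT 25 dpp libraries. In a bulk sample, fewer cells of a type and less RNA per cell cannot be told apart, and the part of these shifts in the results below was not tested.

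Summed over all 55 members, the level was 4979 and 5116 CPM in WT, against 4884 and 4635 CPM in KO, at 19 dpp. At 25 dpp it was 2516 and 2969 CPM in WT, against 8587 and 5249 CPM in KO. WT libraries were thus lowest at 25 dpp, and the KO libraries of that age lay above all others. As a share of repeat family counts, members made up 8.54% and 8.91% in WT, against 8.12% and 8.45% in KO, at 19 dpp, and 5.89% and 6.63% in WT, against 14.7% and 9.39% in KO, at 25 dpp. A pair of internal parts carried much of this sum: ERVB4_1B-I_MM held 35.4% and MMERVK10C-int 14.5% of all member counts. The other 24 internal parts summed to 2081 and 2359 CPM in WT, against 3191 and 2785 CPM in KO, at 19 dpp, and to 1347 and 1572 CPM in WT, against 2421 and 2274 CPM in KO, at 25 dpp. LTR members held 2.68% to 6.61% of member counts.

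**Figure D1:**
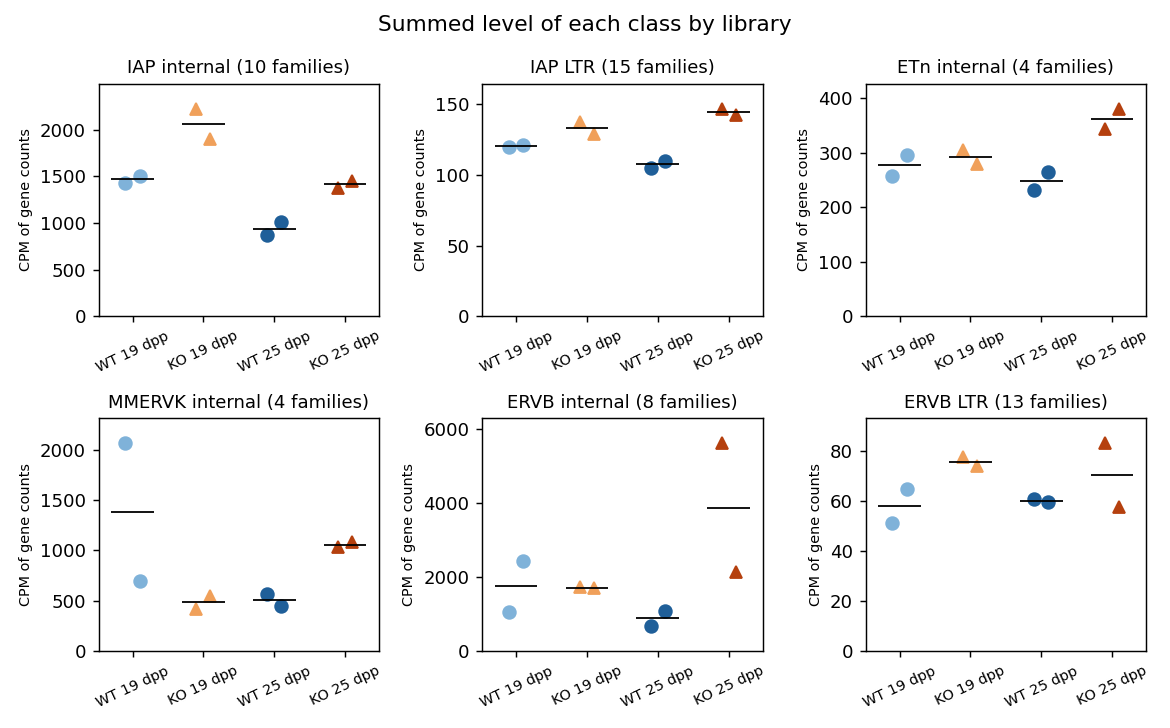
Summed level in CPM (vertical axes, from 0) of each class in the 8 libraries. Circles are WT libraries, triangles KO libraries and horizontal lines group means. The sum of the IAP internal parts was higher in KO at both ages, though at 19 dpp not without IAPEY4_I-int, while the MMERVK and ERVB internal sums held 1 library far from its partner, in WT at 19 dpp (2062 against 693 CPM) and in KO at 25 dpp (5602 against 2136 CPM).

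Genes and repeat families were tested together with edgeR's quasi-likelihood test on gene totals, and a family was called where the Benjamini-Hochberg adjusted p over all 24407 features tested was under 0.05. Of the 55 members, 53 passed the filter on low counts, and 2 ERVB4 LTRs did not. At 19 dpp, 4 of the 53 rose in KO and 2 fell. Over all features tested, 5.33% were called higher and 14.3% lower, and over repeat families alone 0.949% and 6.74%, against 7.55% and 3.77% of the members. The median log2 fold change was -0.14 over the members and -0.05 over all features. At 25 dpp, 19 of the 53 rose and 7 fell, which is 35.8% and 13.2% of the members, against 37.9% and 30.1% of all features and 18.3% and 20.0% of repeat families. The median log2 fold change was 0.27 over the members, 0.31 over all features and 0.01 over repeat families.

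The calls at 25 dpp depended on how the libraries were scaled. Gene totals set the median of all features at 0.31, TMM factors set it at -0.11, and the members called then changed from 19 higher and 7 lower to 12 higher and 15 lower. DESeq2 size factors set the median at -0.31 and gave 8 higher and 18 lower. Dividing by Sertoli marker counts set it at -1.79 and gave 0 higher and 41 lower by edgeR, of 41 members at an unadjusted p under 0.05. At 19 dpp the same alternatives gave 7 higher and 2 lower with TMM or DESeq2 factors, with the median of all features at 0.00, and 0 higher and 20 lower with Sertoli markers, of 24 at an unadjusted p under 0.05. Each rise at 25 dpp below is therefore a rise relative to the gene total, and calls that ended under TMM are named. Among the members of lowest level these were IAPEY5_I-int (log2 0.97, adjusted p = 0.0272; 0.58 and 0.132 with TMM) and IAPEY4_LTR (log2 1.13, adjusted p = 0.026; 0.73 and 0.118 with TMM), both named here after their values were seen. The 19 dpp calls rested on few libraries: without KO replicate 1 of that age 0 members were called by edgeR, 6 had an unadjusted p under 0.05, and over all features tested 0.0421% were then called higher and 0.927% lower.

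**Figure D2:**
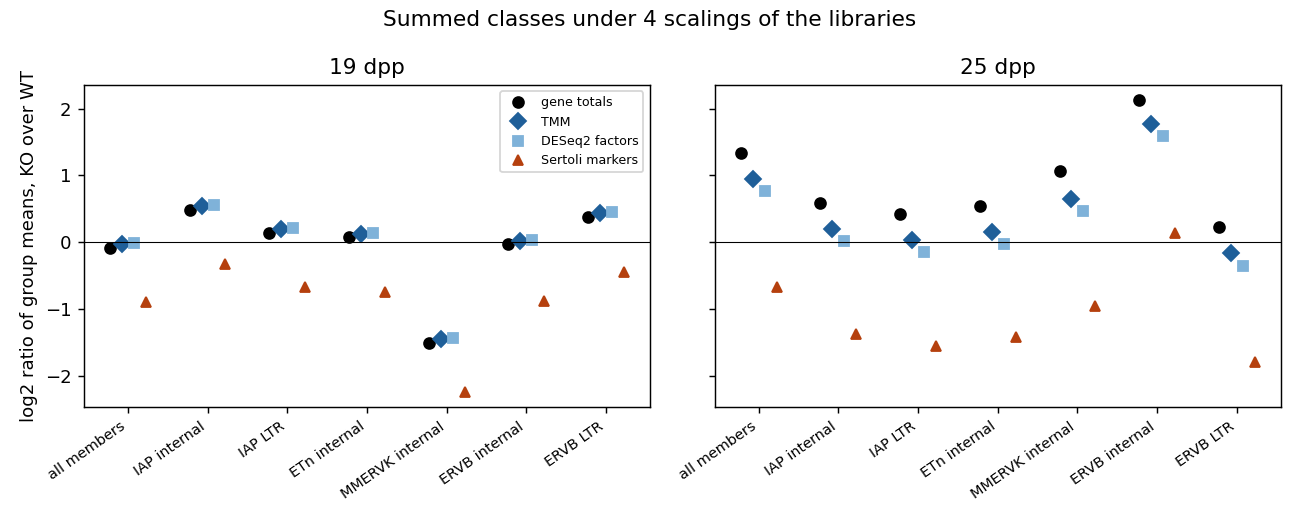
Log2 ratio of KO to WT group means (vertical axis) of the summed members of each class at 19 dpp (left) and 25 dpp (right) under 4 scalings of the libraries. At 25 dpp the IAP internal ratio moved from 0.59 with gene totals to 0.20 with TMM factors, 0.0222 with DESeq2 factors and -1.37 with Sertoli markers.

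The IAP internal parts, which encode the intracisternal A particle, were higher in KO at 25 dpp in each of the 10 families. Summed, they stood at 1432 and 1504 CPM in WT, against 2226 and 1899 CPM in KO, at 19 dpp, and at 868 and 1008 CPM in WT, against 1380 and 1448 CPM in KO, at 25 dpp. Without IAPEY4_I-int, a sum added after the values were seen, they stood at 921 and 888 CPM in WT, against 932 and 896 CPM in KO, at 19 dpp, where the groups overlapped, and at 704 and 774 CPM in WT, against 1005 and 1064 CPM in KO, at 25 dpp. Of the 10, 7 rose at 25 dpp and 0 fell, against 37.9% and 30.1% of all features and 18.3% and 20.0% of repeat families. All 10 had both KO libraries above both WT libraries, and the median log2 fold change was 0.96. Both KO libraries lay above both WT libraries for 49.2% of all features and 39.4% of repeat families. With TMM factors 4 of the 10 were called higher, and with DESeq2 factors 2, against 27.1% and 22.1% of all features. At 19 dpp only 1 of the 10 rose and 0 fell, against 5.33% and 14.3% of all features, and 5 had positive and 5 negative fold changes. At that age both KO libraries lay above both WT libraries for 4 and below them for 4 (28.1% and 37.1% of all features).

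IAPEY4_I-int, an internal part of the envelope-bearing IAPE elements, was the member of this class called at both ages. It was at 511 and 616 CPM in WT, against 1294 and 1004 CPM in KO, at 19 dpp, and at 163 and 233 CPM in WT, against 375 and 384 CPM in KO, at 25 dpp. The KO libraries were above the WT libraries of their age without overlap, while both genotypes were lower at 25 than at 19 dpp. The rise was 2.04-fold at 19 dpp (log2 1.03 ± 0.21 SE, adjusted p = 0.0118) and 1.91-fold at 25 dpp (log2 0.94 ± 0.21, adjusted p = 0.0038). The 19 dpp call ended without WT replicate 1 (adjusted p = 0.0537) or KO replicate 1 (adjusted p = 0.12), and the 25 dpp call ended with DESeq2 factors (log2 0.38, adjusted p = 0.0935). It alone supplied 11.0% of member counts.

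IAPEz-int, the internal part of the best known IAP elements, moved less. Its level was 444 and 433 CPM in WT, against 544 and 510 CPM in KO, at 19 dpp, and 397 and 403 CPM in WT, against 552 and 610 CPM in KO, at 25 dpp. The groups did not overlap at either age. The rise at 25 dpp was 1.45-fold (log2 0.54 ± 0.13, adjusted p = 0.00548), and with TMM factors it was not called (log2 0.14, adjusted p = 0.3). At 19 dpp the log2 difference of 0.26 ± 0.13 was not called (adjusted p = 0.185).

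IAPLTR4_I and IAP1-MM_I-int also rose at 25 dpp, and both calls held with TMM factors. IAPLTR4_I was at 9.48 and 11.6 CPM in WT, against 34.1 and 28.6 CPM in KO, at 25 dpp, 2.97-fold higher (log2 1.57 ± 0.20, adjusted p = 0.000355; 1.19 with TMM). At 19 dpp it was at 23.4 and 24.3 CPM in WT, against 36.0 and 33.6 CPM in KO, without overlap but not called (log2 0.54, adjusted p = 0.0865). IAP1-MM_I-int was at 12.4 and 12.5 CPM in WT, against 30.8 and 26.0 CPM in KO, at 25 dpp (log2 1.19 ± 0.26, adjusted p = 0.00366; 0.80 with TMM; 0.61 and not called with DESeq2 factors, adjusted p = 0.0668). Its 19 dpp libraries overlapped, at 48.3 and 28.9 CPM in WT, against 29.5 and 34.9 CPM in KO.

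IAPA_MM-int had the highest fold change among the members called at 25 dpp, at a very low level. It was at 0.198 and 0.195 CPM in WT, against 1.51 and 1.78 CPM in KO, 8.35-fold higher (log2 3.04 ± 0.42, adjusted p = 0.000473; 2.64 with TMM). At 19 dpp it was at 0.405 and 0.472 CPM in WT, against 1.07 and 0.844 CPM in KO, which was not called (log2 1.10, adjusted p = 0.0935).

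IAP-d-int rose at 25 dpp from 9.69 and 9.62 CPM in WT to 24.2 and 14.7 CPM in KO (log2 1.01 ± 0.28, adjusted p = 0.0114), but the call ended without KO replicate 1 (log2 0.60, adjusted p = 0.118) and with TMM (log2 0.62, adjusted p = 0.0876). The other IAP internal parts above 10 CPM passed the test at neither age. IAPLTR3-int was at 292 and 319 CPM in WT, against 264 and 238 CPM in KO, at 19 dpp, and at 216 and 273 CPM in WT, against 286 and 308 CPM in KO, at 25 dpp. IAPEy-int was at 64.8 and 35.4 CPM in WT, against 18.1 and 30.9 CPM in KO, at 19 dpp (log2 -1.03 ± 0.32, adjusted p = 0.0572), and at 39.2 and 41.7 CPM in WT, against 49.4 and 45.9 CPM in KO, at 25 dpp. IAPEY3-int stayed between 19.9 and 27.4 CPM in all 8 libraries. For these 3 families KO libraries lay below WT at 19 dpp and above WT at 25 dpp, and with TMM factors the 25 dpp fold changes turned negative (IAPLTR3-int -0.10, IAPEy-int -0.15, IAPEY3-int -0.12).

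**Figure D3:**
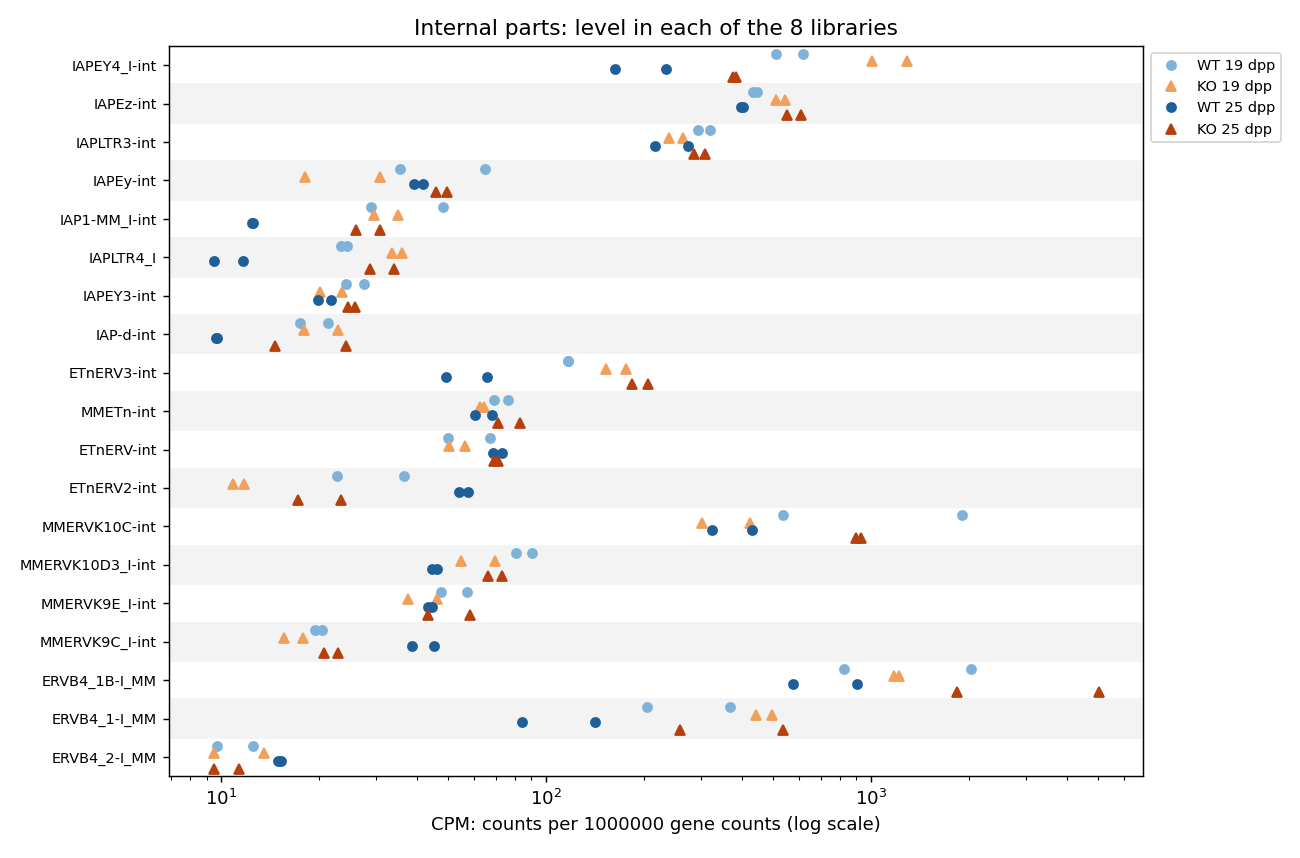
Level of the 19 internal parts with a mean of at least 10 CPM in each of the 8 libraries, on a logarithmic axis in CPM. Light and dark circles are WT libraries at 19 and 25 dpp, light and dark triangles KO libraries at 19 and 25 dpp. The dark circles of ETnERV3-int, IAPLTR4_I and IAP1-MM_I-int stand well to the left of the triangles, and MMERVK10C-int has 1 WT library at 1903 CPM.

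The LTRs of the IAP elements carry the promoter of the element, and their RNA includes transcripts that start in solo LTRs or read into them from nearby genes. Their summed level was 120 and 121 CPM in WT, against 138 and 129 CPM in KO, at 19 dpp, and 105 and 110 CPM in WT, against 147 and 143 CPM in KO, at 25 dpp. Of the 15, 1 rose and 1 fell at 19 dpp, against 5.33% and 14.3% of all features. At 25 dpp 5 rose and 2 fell, against 37.9% and 30.1%, and the counts were 3 and 4 with TMM factors and 2 and 5 with DESeq2 factors.

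IAPLTR4, the LTR of IAPLTR4_I, rose at both ages, with the same order of libraries within each age as its internal part. It was at 14.6 and 15.2 CPM in WT, against 26.5 and 25.4 CPM in KO, at 19 dpp, and at 7.53 and 8.69 CPM in WT, against 28.2 and 24.8 CPM in KO, at 25 dpp. The rise was 1.75-fold at 19 dpp (log2 0.80 ± 0.20, adjusted p = 0.0243) and 3.27-fold at 25 dpp (log2 1.71 ± 0.20, adjusted p = 0.000273; 1.32 with TMM). Leaving out any of the 4 libraries of 19 dpp ended the call at that age, with adjusted p between 0.0961 and 0.172.

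IAPLTR1_Mm, an LTR that flanks IAPEz, was at 14.0 and 15.1 CPM in WT, against 39.6 and 36.7 CPM in KO, at 25 dpp (2.62-fold, log2 1.39 ± 0.23, adjusted p = 0.000907; 0.99 with TMM). At 19 dpp it was at 27.8 and 18.4 CPM in WT, against 36.8 and 35.9 CPM in KO (log2 0.65, adjusted p = 0.0725). The related IAPLTR1a_Mm stayed between 10.7 and 14.6 CPM and was called at neither age, though with TMM factors it was called lower at 25 dpp (log2 -0.59, adjusted p = 0.0324). IAPLTR2_Mm was called higher at 25 dpp (14.8 and 18.3 CPM in WT, 25.6 and 23.4 CPM in KO, log2 0.57 ± 0.20, adjusted p = 0.0348). This call ended with TMM (log2 0.18, adjusted p = 0.386) and without WT replicate 1 (adjusted p = 0.137), KO replicate 1 (0.157) or KO replicate 2 (0.0804) of 25 dpp, or either KO library of 19 dpp (0.0622 and 0.062). At 19 dpp its KO libraries, at 16.5 and 16.6 CPM, lay below the WT libraries at 20.8 and 24.1 CPM.

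IAPLTR3 and IAPLTR2a2_Mm went the other way. IAPLTR3 was at 4.64 and 7.61 CPM in WT, against 0.933 and 1.21 CPM in KO, at 19 dpp, and at 11.1 and 10.3 CPM in WT, against 2.33 and 4.28 CPM in KO, at 25 dpp. It fell at 19 dpp (log2 -2.51 ± 0.41, adjusted p = 0.00599) and at 25 dpp (log2 -1.70 ± 0.38, adjusted p = 0.00394). These were the lowest fold changes of any LTR member at either age. The 19 dpp call ended without KO replicate 1 (log2 -2.34, adjusted p = 0.082). IAPLTR2a2_Mm was at 15.6 and 12.6 CPM in WT, against 4.93 and 4.58 CPM in KO, at 25 dpp (log2 -1.57 ± 0.25, adjusted p = 0.000828). At 19 dpp it was at 5.78 and 5.44 CPM in WT, against 3.78 and 4.10 CPM in KO and was not called.

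The ETn internal parts split in direction. ETnERV3-int rose at 25 dpp, from 49.0 and 65.9 CPM in WT to 184 and 206 CPM in KO (3.39-fold, log2 1.76 ± 0.18, adjusted p = 0.000188; 1.38 with TMM and 1.20 with DESeq2 factors, both called). At 19 dpp it was at 117 CPM in both WT libraries and at 176 and 153 CPM in KO, without overlap but not called (log2 0.49, adjusted p = 0.0795). Of the internal parts above 10 CPM, it had the lowest adjusted p at 25 dpp.

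ETnERV2-int fell at both ages. It was at 22.7 and 36.5 CPM in WT, against 10.9 and 11.7 CPM in KO, at 19 dpp (log2 -1.38 ± 0.26, adjusted p = 0.00987), and at 54.0 and 57.5 CPM in WT, against 17.2 and 23.3 CPM in KO, at 25 dpp (log2 -1.46 ± 0.26, adjusted p = 0.00139). The ratio of KO to WT means was 0.383 and 0.364. The 19 dpp call ended without WT replicate 2 (adjusted p = 0.0538), KO replicate 1 (0.109) or KO replicate 2 (0.0635). The noncoding MMETn-int and the coding ETnERV-int were called at neither age. MMETn-int stayed between 60.4 and 83.2 CPM and ETnERV-int between 49.9 and 73.3 CPM in all 8 libraries, so the 4 ETn rows summed to 258 and 297 CPM in WT, against 306 and 279 CPM in KO, at 19 dpp, and to 232 and 265 CPM in WT, against 343 and 381 CPM in KO, at 25 dpp.

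MMERVK10C-int is the internal part of a young ERVK family with coding copies. It was at 1903 and 535 CPM in WT, against 302 and 425 CPM in KO, at 19 dpp, and at 429 and 323 CPM in WT, against 902 and 929 CPM in KO, at 25 dpp. KO libraries were thus below WT at 19 dpp and above WT at 25 dpp. Neither difference was called (19 dpp: log2 -1.75 ± 0.53, adjusted p = 0.0576; 25 dpp: log2 1.28 ± 0.52, adjusted p = 0.0603). WT replicate 1 of 19 dpp stood apart: without it the 19 dpp fold change was -0.56, and without WT replicate 2 it was -2.39 and called.

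LTRs listed as partners of MMERVK10C-int have names outside the rule. RLTR10C was at 39.4 and 28.5 CPM in WT, against 23.2 and 23.5 CPM in KO, at 19 dpp, and at 41.9 and 25.7 CPM in WT, against 36.2 and 40.9 CPM in KO, at 25 dpp. RLTR10B2 is given because it ran closest of all repeat families to MMERVK10C-int over the 8 libraries, so its likeness is no separate result. It was at 27.4 and 9.47 CPM in WT, against 3.95 and 7.02 CPM in KO, at 19 dpp, and at 5.81 and 7.13 CPM in WT, against 12.8 and 13.7 CPM in KO, at 25 dpp. The WT library that was high for MMERVK10C-int was thus far above its partner for RLTR10B2 and less so for RLTR10C.

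The 3 other MMERVK internal parts were at lower levels. MMERVK10D3_I-int was at 90.4 and 80.8 CPM in WT, against 54.9 and 69.4 CPM in KO, at 19 dpp, and at 44.5 and 46.2 CPM in WT, against 66.0 and 73.4 CPM in KO, at 25 dpp. It was called higher at 25 dpp (log2 0.62 ± 0.17, adjusted p = 0.0108), though not with TMM (log2 0.23, adjusted p = 0.236) or without KO replicate 2 (adjusted p = 0.0714). MMERVK9C_I-int fell at 25 dpp, from 45.0 and 38.6 CPM in WT to 20.7 and 22.8 CPM in KO (log2 -0.94 ± 0.19, adjusted p = 0.00247), and was at 20.4 and 19.4 CPM in WT, against 15.6 and 17.9 CPM in KO, at 19 dpp. MMERVK9E_I-int stayed between 37.6 and 58.2 CPM. At 19 dpp all 5 MMERVK members had both KO libraries below both WT libraries, as had 37.1% of all features. For MMERVK10D3_LTR this order came from 7 and 8 counts in WT and 4 and 8 counts in KO. Its levels were 0.258 and 0.252 CPM in WT, against 0.178 and 0.241 CPM in KO. Of the 5 MMERVK members, 0 were called by edgeR at 19 dpp, 2 had an unadjusted p under 0.05, and among the 4 internal parts DESeq2's Wald test called 2 lower and limma-voom 0.

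ERVB4_1B-I_MM, the internal part of a betaretrovirus-like family, set the level of the ERVB class and varied widely between replicates. It was at 824 and 2035 CPM in WT, against 1175 and 1223 CPM in KO, at 19 dpp, and at 574 and 904 CPM in WT, against 5034 and 1845 CPM in KO, at 25 dpp. The 19 dpp groups overlapped, and the 25 dpp groups did not. The rise at 25 dpp (4.66-fold, log2 2.22 ± 0.57, adjusted p = 0.0108) was not called without WT replicate 1 (adjusted p = 0.116), WT replicate 2 (0.0541) or KO replicate 1 (log2 1.32, 0.0752), nor when repeat families were fitted alone (0.0655). In KO replicate 1 of 25 dpp this family made up 58.6% of all member counts.

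Its LTR, ERVB4_1B-LTR_MM, followed the same order of libraries at 25 dpp, at 8.98 and 12.5 CPM in WT, against 50.6 and 22.5 CPM in KO (log2 1.77 ± 0.46, adjusted p = 0.00934; 1.39 with TMM). This call ended without WT replicate 1 (adjusted p = 0.0879) or KO replicate 1 (log2 1.07, adjusted p = 0.0681) and with DESeq2 factors (adjusted p = 0.0552). At 19 dpp it was at 12.6 and 26.4 CPM in WT, against 21.7 and 24.3 CPM in KO. ERVB4_1-I_MM was at 204 and 368 CPM in WT, against 497 and 442 CPM in KO, at 19 dpp (log2 0.71, adjusted p = 0.285), and at 84.5 and 141 CPM in WT, against 537 and 258 CPM in KO, at 25 dpp (3.52-fold, log2 1.82 ± 0.44, adjusted p = 0.00802). Its 25 dpp call ended without WT replicate 1 (log2 1.49, adjusted p = 0.0871) and with repeat families fitted alone (adjusted p = 0.0528).

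ERVB4_3-I_MM had the highest fold change among the members called at 19 dpp. It was at 6.19 and 7.80 CPM in WT, against 20.1 and 15.9 CPM in KO (2.58-fold, log2 1.36 ± 0.27, adjusted p = 0.0116), a call that ended without WT replicate 1 (adjusted p = 0.0514) or KO replicate 1 (0.118). At 25 dpp it was at 4.64 and 4.52 CPM in WT, against 6.56 and 8.98 CPM in KO (log2 0.76, adjusted p = 0.0334), which was not called with TMM (log2 0.36, adjusted p = 0.256), or without either 25 dpp WT library (0.0827 and 0.084), KO replicate 2 of 25 dpp (log2 0.52, adjusted p = 0.209) or either KO library of 19 dpp (0.0524 and 0.051). ERVB4_2-I_MM stayed between 9.46 and 15.3 CPM and was called at neither age.

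ERVB4_1C-LTR_Mm changed in opposite directions at the 2 ages. It was at 13.7 and 12.9 CPM in WT, against 28.5 and 23.9 CPM in KO, at 19 dpp (log2 0.98 ± 0.21, adjusted p = 0.0139), and at 19.5 and 18.7 CPM in WT, against 8.15 and 8.94 CPM in KO, at 25 dpp (log2 -1.16 ± 0.21, adjusted p = 0.00134). No libraries overlapped at either age. The 19 dpp call ended without WT replicate 2 (adjusted p = 0.0841), KO replicate 1 (0.143) or KO replicate 2 (0.0528). ERVB7_3-LTR_MM fell at 25 dpp, from 5.39 and 4.76 CPM in WT to 1.77 and 1.67 CPM in KO (log2 -1.56 ± 0.32, adjusted p = 0.00266), and lay between 1.57 and 2.31 CPM in the 4 libraries of 19 dpp. Over the class, 5 of 19 ERVB members tested rose at 25 dpp and 3 fell (26.3% and 15.8%), against 37.9% and 30.1% of all features. The lowest fold change of any member, -3.67 for ERVB2_1-I_MM at 25 dpp, came from a family at or under 0.732 CPM in every library, and its KO libraries held 0 and 0.114 CPM. That call ended without KO replicate 1 (adjusted p = 0.068).

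**Figure D4:**
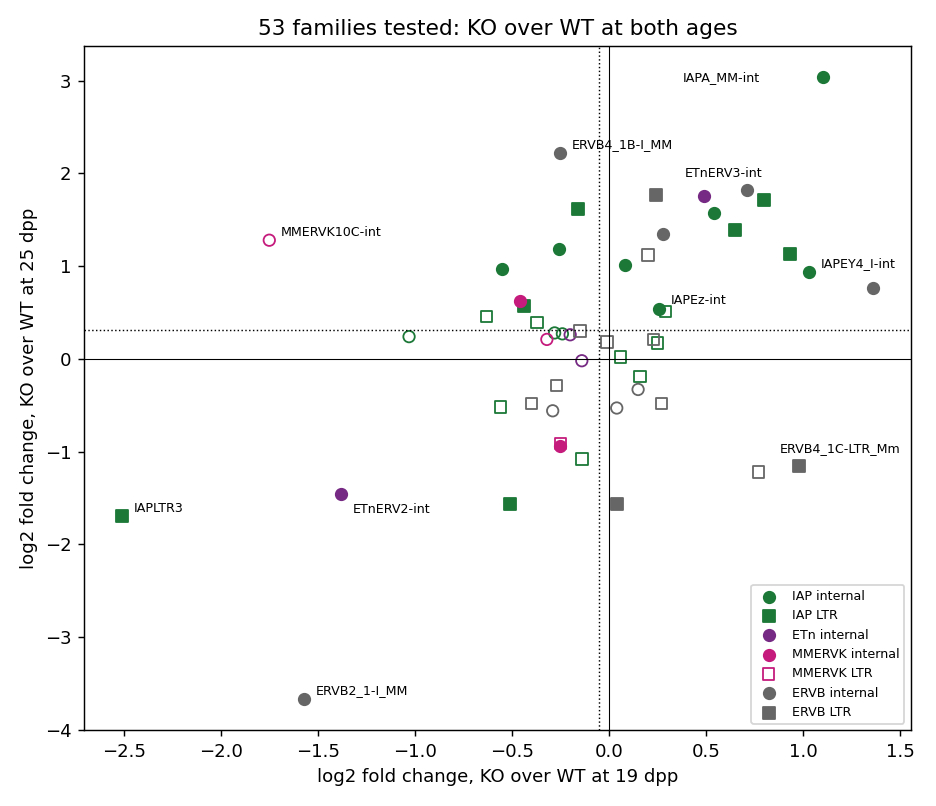
Log2 fold change of KO over WT at 19 dpp (horizontal axis) and 25 dpp (vertical axis) of the 53 members tested. Circles are internal parts and squares LTRs, filled where the member was called at 25 dpp, and dotted lines mark the median of all features (-0.05 and 0.31). ERVB4_1C-LTR_Mm lies at 0.98 and -1.16, and IAPLTR3 and ETnERV2-int lie low on both axes.

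LTR counts were set against internal counts, a ratio within each library that does not depend on the scaling. For IAP, there were 8.38 and 8.04 LTR counts per 100 internal counts in WT, against 6.18 and 6.80 in KO, at 19 dpp, and 12.1 and 10.9 in WT, against 10.6 and 9.85 in KO, at 25 dpp. The ratio was lower in KO at both ages without overlap, and higher at 25 than at 19 dpp in both genotypes. IAPEY4_I-int, which had few LTR counts, held 1294 and 1004 of the 2226 and 1899 internal CPM in KO at 19 dpp. Without it the internal sums overlapped at 19 dpp (921 and 888 CPM in WT, 932 and 896 CPM in KO). The LTR sums of that age were 120 and 121 CPM in WT, 138 and 129 CPM in KO. The lower ratio in KO at 19 dpp thus rested on this family. At 25 dpp the internal sums without it were 704 and 774 CPM in WT, 1005 and 1064 CPM in KO. The LTR sums of that age were 105 and 110 CPM in WT, 147 and 143 CPM in KO. On these sums the ratios of WT and KO overlapped at 25 dpp. The ratio was then higher at 25 than at 19 dpp without overlap in WT but not in KO. IAPLTR3 gave 1.59 and 2.39 counts per 100 IAPLTR3-int counts in WT, against 0.354 and 0.506 in KO, at 19 dpp, and 5.14 and 3.80 in WT, against 0.816 and 1.39 in KO, at 25 dpp, so the LTR was low in KO relative to the internal part of the same name. IAPEY4_LTR kept to 0.230 to 0.362 counts per 100 IAPEY4_I-int counts in all 8 libraries, with all groups overlapping.

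RLTRETN_Mm, the LTR of the ETn elements, gave 5.56 and 5.56 counts per 100 ETn internal counts in WT, against 3.30 and 3.98 in KO, at 19 dpp, and 10.6 and 7.56 in WT, against 4.01 and 3.88 in KO, at 25 dpp. For ERVB the ratio was 8.80 and 5.54 in WT, against 1.48 and 2.702 in KO, at 25 dpp, and overlapped at 19 dpp. ERVB4_1B-LTR_MM gave 1.53 and 1.30 counts per 100 ERVB4_1B-I_MM counts in WT, against 1.84 and 1.99 in KO, at 19 dpp. At 25 dpp it gave 1.57 and 1.38 in WT, against 1.00 and 1.22 in KO. KO thus lay above WT at 19 dpp and below WT at 25 dpp, without overlap. The lowest ratio was in the KO library in which the internal part was at 5034 CPM. IAPLTR1_Mm and IAPLTR1a_Mm together gave 6.89 to 9.54 counts per 100 IAPEz-int counts, higher in KO than in WT at both ages.

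**Figure D5:**
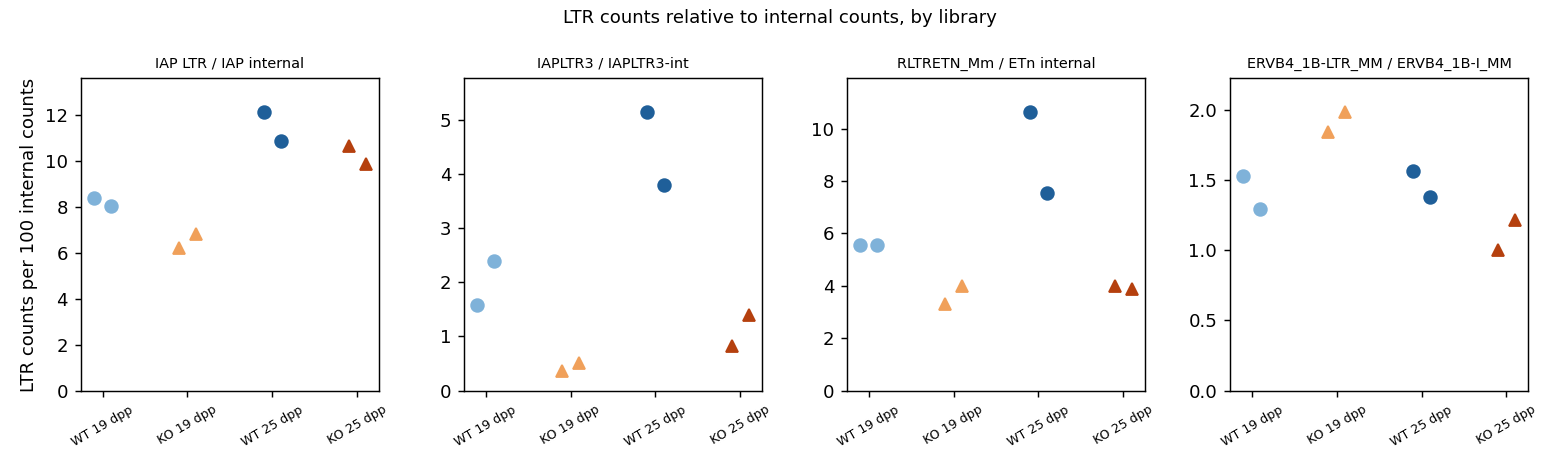
LTR counts per 100 internal counts (vertical axes, from 0) in each library for 4 pairings, with circles for WT and triangles for KO. The IAPLTR3 and RLTRETN_Mm panels show KO below WT at both ages. The ERVB4_1B panel runs from 1.00 to 1.99, with KO above WT at 19 dpp and below WT at 25 dpp.

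Between 19 and 25 dpp, 15 of the 53 members fell and 6 rose in WT, against 40.8% of all features and 18.0% of repeat families called lower and 26.4% and 12.2% called higher. In KO, 4 fell and 1 rose, against 7.13% and 10.3% of all features and 0.569% and 2.28% of repeat families. These comparisons use the same libraries as those of KO with WT, so they are not independent of them. In WT, 6 of the 10 IAP internal parts fell and 0 rose, with 0 higher also by DESeq2's Wald test and limma-voom, and all 10 fold changes were negative, IAP1-MM_I-int by the most (log2 -1.63, adjusted p = 0.00109). With TMM factors, 3 of the 10 fell and 1 rose, and with DESeq2 factors 3 fell and 2 rose. Sertoli markers gave 0 falls and 4 rises by edgeR, with a median log2 fold change of 0.50, against -0.96 with gene totals. IAPEY4_I-int fell in both genotypes, by 1.51 on the log2 scale in WT (adjusted p = 0.00068) and by 1.60 in KO (adjusted p = 0.00467; not called without KO replicate 1 of 19 dpp), and these changes held with TMM and DESeq2 factors. With Sertoli markers its fall in WT was not called. MMERVK9C_I-int (log2 1.07), IAPLTR2a2_Mm (1.33) and ERVB7_3-LTR_MM (1.43) rose in WT with age, each with an adjusted p between 0.00159 and 0.00417, and none of these was called in KO (adjusted p = 0.212, 0.504 and 0.792). The difference of the age change between KO and WT was called for IAPLTR2a2_Mm (adjusted p = 0.0492) and ERVB7_3-LTR_MM (0.0302) and not for MMERVK9C_I-int (0.0774). In KO the riser was IAPLTR3 (log2 1.61, adjusted p = 0.0293), lost without either KO library of 19 dpp or KO replicate 2 of 25 dpp.

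The effect of the KO at 25 dpp minus that at 19 dpp was tested directly. It was positive and called for 11 members and negative and called for 3, against 23.1% and 8.16% of all features and 5.79% and 2.56% of repeat families, with medians of 0.28 over the members and 0.50 over all features. With TMM factors 1 member was called positive, ETnERV3-int (log2 difference 0.83, adjusted p = 0.0246), and 4 negative. With DESeq2 factors 0 were called positive by edgeR, of 14 members at an unadjusted p under 0.05, and 6 negative. ERVB4_1C-LTR_Mm had the clearest difference (log2 -2.14 ± 0.29, adjusted p = 0.00487), called under each of those scalings and with any library left out.

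Of 42 listed genes that silence LTR retrotransposons, 41 had a row and 40 were tested. At 19 dpp 15 fell and 0 rose in KO by edgeR, with 23 of the 40 at an unadjusted p under 0.05 and a median log2 fold change of -0.44, against 14.3% of all features lower and 5.33% higher. With TMM or DESeq2 factors 17 fell and 3 rose, and with Sertoli markers 31 fell and 0 rose. Without KO replicate 1 of that age 5 fell, and without WT replicate 2 of that age 9 fell. At 25 dpp 21 rose and 8 fell, with a median of 0.50, against 37.9% and 30.1% of all features. The direction at 25 dpp depended on the scaling: 10 rose and 13 fell with TMM factors (median 0.12), 6 rose and 15 fell with DESeq2 factors (median -0.06), and 0 rose by edgeR and 33 fell, of 33 at an unadjusted p under 0.05, with Sertoli markers (median -1.44). Without KO replicate 2 of 25 dpp 13 rose and 6 fell, without WT replicate 1 of that age 14 rose and 6 fell, and without KO replicate 1 of that age 16 rose and 4 fell. Of 12 markers of early meiotic prophase, a list that shares Tex15 with this one, 11 fell at 19 dpp (summed levels of 2760 and 3088 CPM in WT, 639 and 1063 CPM in KO), and 4 rose and 1 fell at 25 dpp (2476 and 2873 CPM in WT, 2953 and 3955 CPM in KO). Their part in the values of the silencing genes was not tested.

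Genes of the piRNA pathway led the falls at 19 dpp. Tdrd12, needed to make secondary piRNAs, was at 83.7 and 129 CPM in WT, against 10.5 and 17.7 CPM in KO (log2 -2.91 ± 0.30, adjusted p = 0.00284). Its partner Exd1 was at 34.9 and 43.8 CPM in WT, against 7.99 and 9.94 CPM in KO (log2 -2.13, adjusted p = 0.00284). Mael and the germ cell helicase Ddx4 fell by 2.17 and 2.15 on the log2 scale. At 25 dpp Mael was at 1079 and 920 CPM in WT, against 192 and 252 CPM in KO (log2 -2.17, adjusted p = 0.000435), while Tdrd12, at 103 and 133 CPM in WT, against 84.3 and 89.7 CPM in KO, was not called (log2 -0.44, adjusted p = 0.197; called lower with TMM, log2 -0.82, adjusted p = 0.0332).

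At 25 dpp the lowest p-values belonged to Tex15, Atrx, Apobec3 and Chaf1a. Tex15, which acts with the piRNA machinery in methylation, rose from 162 and 173 CPM to 459 and 649 CPM (log2 1.72, adjusted p = 0.000219) with gene totals, and was not called with Sertoli markers (log2 -0.23, adjusted p = 0.534). Tex15 fell by 0.79 on the log2 scale at 19 dpp (adjusted p = 0.0191), a call that ended without any 1 of the 4 libraries of that age (adjusted p between 0.051 and 0.179). Atrx, a chromatin remodeller that deposits histone H3.3 on repeats, rose from 32.0 and 52.6 CPM to 210 and 183 CPM (log2 2.21, adjusted p = 0.000235). Apobec3, a deaminase that restricts retroviruses, rose from 5.97 and 8.40 CPM to 28.6 and 36.3 CPM (log2 2.18, adjusted p = 0.000245). With Sertoli markers Atrx (log2 0.28, adjusted p = 0.187) and Apobec3 (log2 0.25, adjusted p = 0.424) were not called. Chaf1a, a subunit of the chromatin assembly factor that keeps endogenous retroviruses silent, fell from 256 and 216 CPM to 58.3 and 59.6 CPM (log2 -2.00, adjusted p = 0.000252). Dnmt3a itself was called higher in KO at 25 dpp (log2 0.73, adjusted p = 0.0182; 0.36 and not called with TMM, adjusted p = 0.125). The call also ended with DESeq2 factors (log2 0.18, adjusted p = 0.393) and without WT replicate 1 (log2 0.41, adjusted p = 0.0545) or KO replicate 1 (log2 0.61, adjusted p = 0.104) of that age, and with Sertoli markers it turned to a called fall (log2 -1.20, adjusted p = 0.000872). At 19 dpp Dnmt3a was not called (log2 -0.43, adjusted p = 0.214), but it was called lower without either WT library of 25 dpp (adjusted p = 0.0446 and 0.0481) and with Sertoli markers (log2 -1.23, adjusted p = 0.00812).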

How the data were processed

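The counts were raw read counts per gene and per repeat family, deposited as 1 table per library with 54087 gene rows and 1205 repeat rows. Per the labels' protocols, RNA from whole testis was treated with DNase and made into libraries with a stranded mRNA kit. Per the submitters' processing notes, STAR 2.7.0a and featureCounts 1.5.1 were used with genome build mm10. The repeat annotation, the strand setting and the treatment of reads that map to several places are not given in the sources used here, so reads can be split among near-identical subfamilies, and internal parts and LTRs of related families are uncertain to that degree.

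Levels are counts per 1000000 gene counts. All 5 comparisons came from 1 edgeR 4.0.16 fit (R 4.3.3) over the 8 libraries with a mean per group, 4 residual degrees of freedom and gene totals as library sizes without further factors. Features passed edgeR's filterByExpr, which kept 24407, and p-values were Benjamini-Hochberg adjusted over them at 0.05. Standard errors were taken from the fold change and its F statistic. Sums over a class and LTR to internal ratios have no test. Alternatives used DESeq2 1.42.0 and limma 3.58.1. The code was tested on simulated counts.

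The members and gene lists were chosen with earlier results of these data known. Members named are internal parts with a mean of at least 10 CPM, the 6 LTRs of highest mean, and at each age the 4 largest rises and falls among members called without overlap and at 1 CPM or more in the higher group. ERVB2_1-I_MM, IAPEY4_LTR, IAPEY5_I-int and MMERVK10D3_LTR were added after their values were seen. Of the silencing genes, Dnmt3a and the 4 of lowest p at each age are named, and Tasor had no row under that symbol. No sequence of a repeat family was used here.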

Additional observations from a re-analysis of the deposited data

Results flagged for a closer look

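For 14 members the effect of the KO on the log2 scale differed between 25 and 19 dpp by the test of that difference in edgeR, given here as 25 dpp minus 19 dpp. Of the members tested 20.8% were called positive and 5.66% negative, against 23.1% and 8.16% of all features. The difference is given member by member below. It was positive for MMERVK10C-int (3.03 ± 0.74 SE, adjusted p = 0.0231), ERVB4_1B-I_MM (2.47, adjusted p = 0.049997), IAPA_MM-int (1.93, 0.037), IAPEY5_I-int (1.52, 0.0389), IAP1-MM_I-int (1.45, 0.0205), ETnERV3-int (1.27 ± 0.25, 0.00982), MMERVK10D3_I-int (1.08, 0.014), ERVB2_1A-I_MM (1.07, 0.0454), IAPLTR4_I (1.03, 0.0258), IAPLTR2_Mm (1.00, 0.0315) and IAPLTR4 (0.91, 0.0386). It was negative for IAPLTR2a2_Mm (-1.06, 0.0492), ERVB7_3-LTR_MM (-1.60, 0.0302) and ERVB4_1C-LTR_Mm (-2.14 ± 0.29, 0.00487). MMERVK10C-int rests in part on WT replicate 1 of 19 dpp, without which the difference was 1.84. ETnERV3-int and ERVB4_1C-LTR_Mm were called with any library left out, and all the others were lost without at least 1 library. ETnERV3-int was the positive difference that was also called with TMM factors.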

How the results depend on the processing

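Of 60 values of named members, 60 kept their direction and side of the threshold with the total of all rows as library size, 45 with TMM factors, 41 with DESeq2 factors and 10 with Sertoli markers. At 19 dpp the 4 members higher in KO became 7 with TMM factors, DESeq2 factors or DESeq2's Wald test, 8 when repeat families were fitted alone and 0 with Sertoli markers, and the 2 lower became 20 with Sertoli markers, 5 with the Wald test and 4 without a filter, with a filter at 5 CPM in 2 libraries or with repeat families alone. At 25 dpp the 19 higher became 12, 8 and 0 and the 7 lower became 15, 18 and 41 with TMM, DESeq2 factors and Sertoli markers. From 19 to 25 dpp in WT, the 6 higher became 11, 18 and 31 and the 15 lower became 6, 5 and 0 (35 members at an unadjusted p under 0.05). In KO, the 1 higher became 2 with DESeq2 factors, the filter at 5 CPM, repeat families alone or the replicate block, 5 without a filter, 6 with the Wald test, and 0 with limma-voom or Sertoli markers, and the 4 lower became 2 with Sertoli markers. For the difference between the KO effects, the 11 positive became 1, 0 and 0 with TMM, DESeq2 factors and Sertoli markers, and the 3 negative became 6 with DESeq2 factors and 5 with Sertoli markers. The total of all rows as library size left each of these counts within 1.5 times.

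Summed log2 ratios of KO to WT moved with the scaling. At 25 dpp TMM gave 0.20 for IAP internal parts, 0.0363 for IAP LTRs, 0.15 for ETn, 0.65 for MMERVK and -0.17 for ERVB LTRs. DESeq2 factors gave 0.77 for all members, 0.0222 for IAP internal parts, -0.15 for IAP LTRs, -0.0277 for ETn, 0.47 for MMERVK and -0.35 for ERVB LTRs, and at 19 dpp -0.017 for all members and 0.21 for IAP LTRs. Sertoli markers gave -0.67 for all members, -1.37 and -1.56 for IAP internal parts and LTRs, -1.42 for ETn, -0.96 for MMERVK, and 0.14 and -1.79 for ERVB internal parts and LTRs at 25 dpp, and -0.89 for all members, -0.32 and -0.66 for IAP internal parts and LTRs, -0.74 for ETn and -0.44 for ERVB LTRs at 19 dpp.

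Single members changed sign as follows. TMM at 25 dpp gave MMETn-int -0.13, IAPLTR3-int -0.10, IAPEy-int -0.15, IAPEY3-int -0.12 and MMERVK9E_I-int -0.19. DESeq2 factors at 25 dpp gave MMETn-int -0.31, IAPEz-int -0.0385, IAPLTR3-int -0.28, IAPEy-int -0.34, IAPEY3-int -0.30, MMERVK9E_I-int -0.37 and IAPLTR2_Mm -0.0012. Sertoli markers gave, at 19 dpp, ERVB4_1-I_MM -0.13, ERVB4_2-I_MM -0.79, ETnERV3-int -0.32, IAPEz-int -0.54, IAPLTR4_I -0.27, IAP-d-int -0.71, IAPLTR1_Mm -0.13, ERVB4_1B-LTR_MM -0.60, IAPLTR4 -0.0044, IAPLTR1a_Mm -0.65 and ERVB7_3-LTR_MM -0.78, and, at 25 dpp, ERVB4_1-I_MM -0.16, ETnERV3-int -0.18, MMETn-int -1.70, IAPEY4_I-int -1.004, IAPEz-int -1.44, IAPLTR3-int -1.67, IAPEy-int -1.75, IAP1-MM_I-int -0.81, IAPLTR4_I -0.40, IAPEY3-int -1.70, IAP-d-int -1.02, MMERVK10C-int -0.74, MMERVK10D3_I-int -1.36, MMERVK9E_I-int -1.76, IAPLTR1_Mm -0.60, ERVB4_1B-LTR_MM -0.24, IAPLTR2_Mm -1.40, IAPLTR4 -0.27 and ERVB4_3-I_MM -1.21. At 19 dpp limma-voom gave ERVB7_3-LTR_MM -0.0069.

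Leaving out each library in turn gave, at 19 dpp, 0 to 5 members higher and 0 to 3 lower, at 25 dpp 11 to 21 and 6 to 8, with age in WT 3 to 6 and 9 to 13, with age in KO 0 to 5 and 0 to 4, and for the difference 1 to 9 positive and 1 to 4 negative. The lowest counts at 19 dpp came without KO replicate 1, which leaves the lone library of that group assumed to vary like the other groups. Log2 ratios ranged from -2.09 to -0.52 for MMERVK at 19 dpp (lowest without WT replicate 2, highest without WT replicate 1), from -0.51 to 0.70 for ERVB internal parts at 19 dpp, from 1.28 to 2.67 for them at 25 dpp, from -0.06 to 0.47 for ERVB LTRs at 25 dpp, from -0.02 to 0.18 for ETn at 19 dpp, and from -0.14 to 0.73 for the ERVB LTR to internal ratio at 19 dpp. Ranges of single members crossed 0 at 19 dpp for ERVB4_2-I_MM (-0.24 without KO replicate 1 to 0.28, and -0.13 without WT replicate 1), ERVB7_3-LTR_MM (-0.26 without KO replicate 1 to 0.30, and -0.0415 without WT replicate 1), IAP-d-int (-0.11 without KO replicate 2 to 0.24, and -0.0594 without WT replicate 2), IAP1-MM_I-int (-0.58 to 0.15 without WT replicate 1), ERVB4_1B-LTR_MM (-0.20 without WT replicate 1 to 0.87), ERVB4_1B-I_MM (-0.76 to 0.54 without WT replicate 2) and ETnERV-int (highest 0.0926 without WT replicate 2), and at 25 dpp for MMERVK9E_I-int (-0.0209 without KO replicate 2 to 0.41) and ETnERV-int (-0.065 to 0.03, the latter without WT replicate 2).

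The replicate block gave 4 higher and 2 lower at 19 dpp, 20 and 7 at 25 dpp, 6 and 14 with age in WT, 2 and 4 with age in KO, and 9 and 2 for the difference. Deviations of same-numbered libraries correlated at -0.116 to 0.461 over the 6 pairs of groups, so the numbers were not taken to pair the libraries. Over the named members, 913 values kept their direction and side of the threshold, 54 lost and 54 gained a call, and 55 changed sign. The cause of these changes was not tested. With 2 libraries a group, small fold changes and families near 0.133 CPM cannot be resolved.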

Other observations

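The features whose levels ran closest to those of 4 members were listed after the values were seen, with no test and nothing read from it about shared control. The measure is the root mean square difference of log2 levels, each centred on its mean over the 8 libraries, among 19677 features. Gene rows under clone, Gm, Rik or LOC names and mitochondrial genes were passed over. A gene closer than those named may be among them. Among the genes searched, IAPEY4_I-int ran closest to Msn (0.09), Unc93b1 (0.10) and Tspan18 (0.11), and among repeat families to its own LTR, IAPEY4_LTR (0.17). Msn, which encodes the membrane linker moesin, was at 43.4 and 47.0 CPM in WT, against 97.6 and 73.2 CPM in KO, at 19 dpp, and at 14.3 and 19.2 CPM in WT, against 29.7 and 33.3 CPM in KO, at 25 dpp. Of the same genes, IAPLTR3 ran closest to Wdr35 (0.16), Tkfc (0.18) and Khdrbs3 (0.18), and of the repeat families to MLT2B3 (0.19). Wdr35 was at 116 and 201 CPM in WT, against 28.5 and 36.0 CPM in KO, at 19 dpp, and at 296 and 314 CPM in WT, against 84.9 and 139 CPM in KO, at 25 dpp.

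The members with a library that stood apart had no gene as close among those searched. ERVB4_1B-I_MM ran closest among repeat families to its own LTR (0.30), and among those genes to Pstpip2 (0.35), Dpep1 (0.38) and Tmem189 (0.39). MMERVK10C-int ran closest among repeat families to RLTR10B2 (0.23), and among those genes to Alpk3 (0.37), Myh7b (0.37) and Zfy1 (0.38). Tmem189 was at 76.2 and 22.3 CPM in KO at 25 dpp and between 13.2 and 23.2 CPM in the other 6 libraries, with the same KO library high as for ERVB4_1B-I_MM.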
